A study of Mus musculus with 6 samples.

Results

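This account follows the genes of major histocompatibility complex (MHC) class I and class II, together with the genes that make peptides and load them onto class I molecules, in mouse fetal aorta. Members were chosen by name on the array: every name beginning with H2-, plus 20 further genes (B2m, Tap1, Tap2, Tapbp, Tapbpl, Erap1, Psmb8, Psmb9, Psmb10, Psme1, Psme2, Psme3, Nlrc5, Ciita, Cd74, Calr, Canx, Pdia3, Cd1d1 and Mr1). That gave 61 genes of the 34797 names on the array, read by 80 probes. They comprised 33 class I genes, 12 class II genes, 14 peptide supply and loading genes, and 2 genes (H2-Ke2 and H2-Ke6) that carry an H2 name from their position in the region and are not MHC genes. The class I set takes in B2m, Cd1d1, Mr1 and the transactivator Nlrc5, and the class II set takes in Cd74 and Ciita.

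The tissue was the aortic artery of C57BL/6 fetuses, with 3 arrays from Nod1 -/- fetuses and 3 from Nod1 +/- littermates. Nod1 encodes an intracellular sensor of bacterial peptidoglycan fragments. All fetuses had a Nod1 -/- mother, mated with a Nod1 +/- male, and every mother received 500 µg of FK565, a synthetic NOD1 ligand, under the skin at E18.5, late in gestation, 6 h before the vessels were taken. Both genotypes were therefore exposed to the ligand, no unexposed fetus was among the 6 samples, and the comparison asks what differs with 1 working Nod1 allele under the ligand. The labels do not say whether an array held 1 fetus or several, nor which part of Nod1 was deleted, so p-values measure only the spread between these samples.

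Nucleated cells display peptides from their own cytosol on class I molecules. The proteasome cuts proteins into peptides, the TAP transporter carries them into the endoplasmic reticulum, aminopeptidases trim them, and a loading complex of tapasin, calreticulin and ERp57 fits them onto a class I heavy chain paired with beta-2-microglobulin. Inflammatory cytokines, interferon-gamma above all, are known to raise many of these genes together and to replace constitutive catalytic proteasome subunits by immunoproteasome subunits. Class II molecules present peptides from the endosomal pathway and are made mainly by professional antigen-presenting cells under the transactivator CIITA.

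Values are log2 processed signal minus the array's 75th percentile, and differences are Nod1 -/- minus Nod1 +/-, given with the standard error and an adjusted p (limma, Benjamini-Hochberg over all 21478 genes tested, threshold 0.05, 3 arrays each). A difference of this kind is between genotypes within a probe, and levels of different probes were not compared. Signal was well above background for 53.7% to 58.3% of probes on Nod1 -/- arrays and 48.6% to 54.7% on Nod1 +/- arrays. The single Nod1 probe read 3.20, 3.19 and 3.35 on Nod1 -/- arrays and 3.15, 3.20 and 3.78 on Nod1 +/- arrays. The groups overlapped (difference -0.13, SE 0.19, adjusted p = 0.648), and since the probe may lie outside the deleted part it does not check the labels. Smooth muscle markers, summed on the linear scale and returned to log2, lay at 10.28 to 10.43 on Nod1 -/- and 10.23 to 10.39 on Nod1 +/- arrays, and of 8 tested 0 passed the threshold in the limma fit (0 at an unadjusted p under 0.05). Endothelial markers were likewise present, at 7.83 to 8.01 on Nod1 -/- and 7.61 to 7.96 on Nod1 +/- arrays, and 3 of 10 tested (Tek, Tie1 and Cldn5) rose, by 1.92, 0.60 and 0.67 (adjusted p = 0.00206, 0.0335 and 0.0382). Of 7 fibroblast markers, Lum and Dcn rose by 0.95 and 0.54 (adjusted p = 0.00677 and 0.0115), with sums of 10.04 to 10.08 on Nod1 -/- and 9.85 to 9.87 on Nod1 +/- arrays. Of 4 tested Schwann cell markers, Fabp7 rose by 2.26 (adjusted p = 0.0116), with sums of 2.39 to 3.16 on Nod1 -/- and 1.86 to 2.27 on Nod1 +/- arrays. No endothelial, fibroblast or Schwann cell marker fell past the threshold. In the limma fit, 5 of the 10 endothelial markers had an unadjusted p under 0.05. Besides the 3 that rose, these were Cdh5, lower at -0.30 (adjusted p = 0.0766), and Esam, higher at 0.30 (adjusted p = 0.0809). Skeletal muscle markers summed to 8.98 on Nod1 +/- replicate 1, and to 6.05 and 5.5 on Nod1 +/- replicates 2 and 3. On Nod1 -/- arrays they summed to 5.22 to 6.09. Of 6 skeletal muscle markers tested, 0 passed the threshold in the limma fit. The part of these cell types in the differences below was not tested.

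Many class I and peptide loading genes fell in Nod1 -/- aortas, while class II genes other than Cd74 showed no difference past the threshold. Of the 61 genes, 47 were bright enough to test, and of these 22 fell and 2 rose in Nod1 -/- aortas. Over all genes tested, 7.66% fell and 11% rose, or 18.7% in either direction. The median difference of the 47 was -0.66, against 0.10 for all genes tested. The Nod1 -/- arrays all lay below the Nod1 +/- arrays for 29 of the 47 genes and all above for 3, against 16.3% and 26.1% of all genes. By class, 11 of 23 class I genes fell (median -0.90), 10 of 14 supply and loading genes fell (median -1.06), and 1 of 8 class II genes fell (median -0.05). The 11 class I genes include Nlrc5, a transactivator and not a class I molecule.

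**Figure D1:**
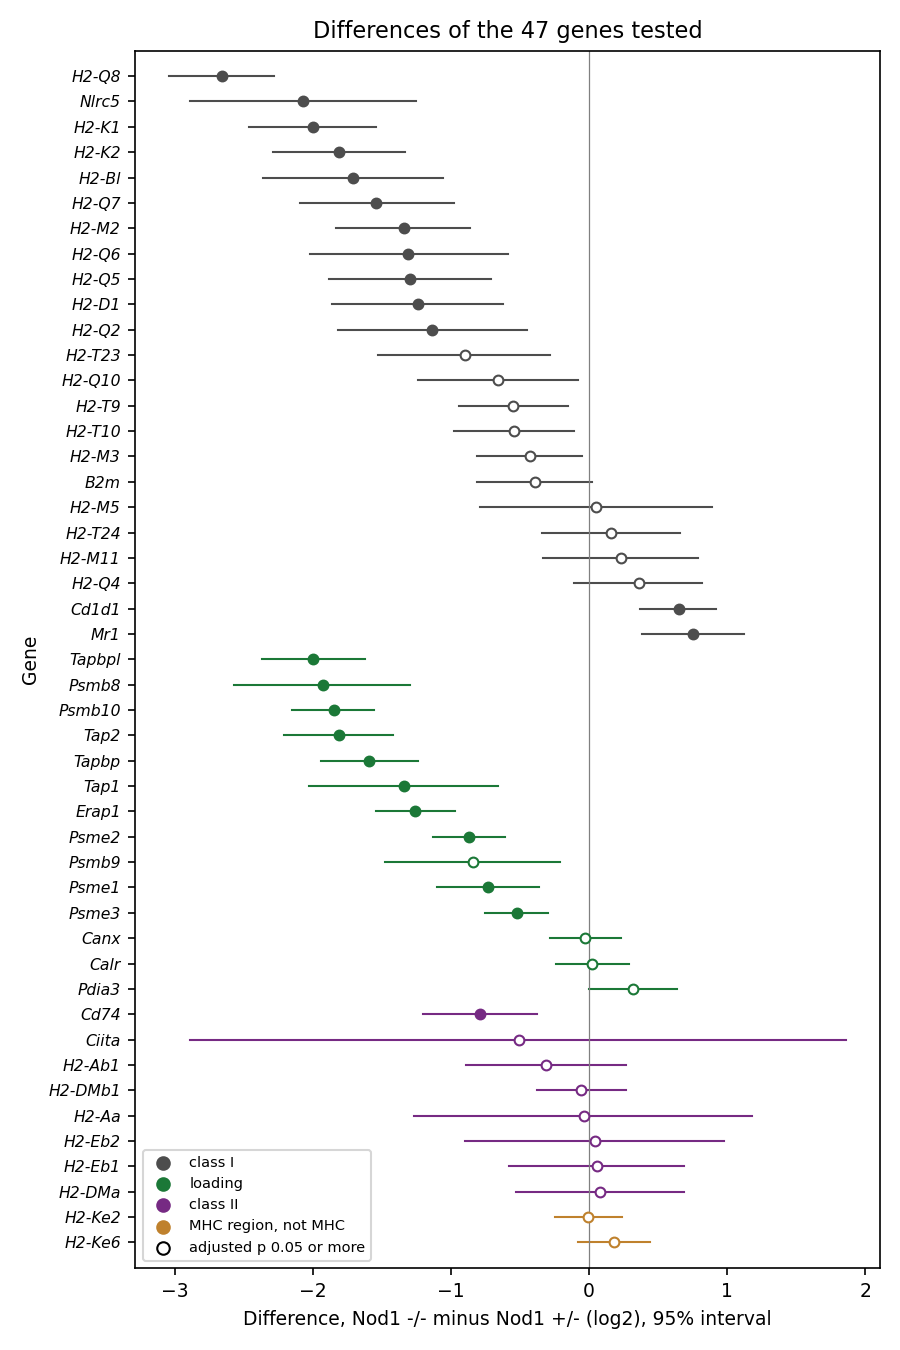
Difference between Nod1 -/- and Nod1 +/- aortas (log2) for each of the 47 genes tested, with its 95% confidence interval from the limma fit. Filled points passed the threshold; 22 lie left of 0 and 2, Cd1d1 and Mr1, right of it, and the class II genes other than Cd74 have intervals that cross 0.

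Of the 3 immunoproteasome subunits, Psmb8 and Psmb10 fell and Psmb9 did not pass the threshold. Psmb8, the subunit beta5i, read 1.67, 1.34 and 0.69 on Nod1 -/- arrays and 3.37, 3.02 and 3.11 on Nod1 +/- arrays. Psmb10, the subunit beta2i, read 3.73, 3.70 and 3.41 on Nod1 -/- arrays and 5.49, 5.37 and 5.53 on Nod1 +/- arrays. Psmb9, the subunit beta1i, read 1.12, 0.73 and 0.17 on Nod1 -/- arrays and 1.79, 1.39 and 1.37 on Nod1 +/- arrays. In all 3 genes every Nod1 -/- array lay below every Nod1 +/- array. Psmb8 fell by 1.93 (SE 0.26, adjusted p = 0.00687), a 3.82-fold lower signal, and Psmb10 fell by 1.85 (SE 0.12, adjusted p = 0.00105), a 3.61-fold lower signal. Psmb9 differed by -0.84 (SE 0.26, adjusted p = 0.0721).

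The constitutive subunits that these replace did not pass the threshold. Psmb5, Psmb6 and Psmb7, the constitutive catalytic subunits, differed by 0.01, 0.06 and 0.16 (adjusted p = 0.939, 0.696 and 0.607). Taken as a log2 ratio within each array, Psmb8 over Psmb5 was lower by 1.95 in Nod1 -/- aortas, at -5.01 ± 0.43 there and -3.06 ± 0.20 in Nod1 +/- aortas (SD, n = 3 each; exact permutation test, two-sided, p = 0.1). Psmb10 over Psmb7 was -0.27 ± 0.10 in Nod1 -/- and 1.74 ± 0.38 in Nod1 +/- aortas (SD, n = 3 each; exact permutation test, p = 0.1). Psmb9 over Psmb6 was -5.46 ± 0.47 in Nod1 -/- and -4.56 ± 0.22 in Nod1 +/- aortas (SD, n = 3 each; exact permutation test, p = 0.1). These are the smallest p that the 20 splits of 3 against 3 allow, and adjusting over the 3 pairs left them at 0.1. Only the change of such a ratio between arrays can be read, since its level depends on the probes. Of 16 constitutive 20S proteasome genes, 0 passed the threshold in the limma fit, and 0 at an unadjusted p under 0.05 (median 0.06). Psmd3 and Psmd11 fell among 17 subunits of the 19S cap (median -0.06), by 0.69 and 0.49 (adjusted p = 0.013 and 0.0159).

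The 3 PA28 activators, which open the proteasome core, all fell. Psme2, PA28 beta, read 5.19, 5.26 and 4.98 on Nod1 -/- arrays and 6.04, 5.99 and 6.00 on Nod1 +/- arrays (difference -0.87, SE 0.11, adjusted p = 0.00538). Psme3, PA28 gamma of the nucleus, read 0.60, 0.48 and 0.59 on Nod1 -/- arrays and 1.14, 1.01 and 1.08 on Nod1 +/- arrays (difference -0.52, SE 0.09, adjusted p = 0.0158). Neither gene's groups overlapped. Psme1, PA28 alpha, fell by 0.73 (SE 0.15, adjusted p = 0.0251). The calls of Psme1 and Psme3 were lost in several settings. Psme1 missed the threshold when replicate 1 or 2 of either genotype was left out (adjusted p up to 0.078). Psme3 missed it when replicate 1 of either genotype or Nod1 -/- replicate 2 was left out (up to 0.0649). Psme3 also missed it in a fit blocked by slide row, where 1 Nod1 -/- array carries the comparison.

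Both chains of the peptide transporter and both peptide editors fell. Tap2 read 1.79, 1.44 and 1.36 on Nod1 -/- arrays and 3.32, 3.17 and 3.55 on Nod1 +/- arrays (difference -1.81, SE 0.16, adjusted p = 0.00204). Tap1, its partner, read -2.02, -2.45 and -2.99 on Nod1 -/- arrays and -0.77, -1.27 and -1.38 on Nod1 +/- arrays (difference -1.34, SE 0.28, adjusted p = 0.0256). Neither gene's groups overlapped, but the Tap1 call was lost when replicate 2 of either genotype or Nod1 +/- replicate 1 was left out (adjusted p up to 0.0868). Tapbp, which encodes tapasin, read 2.25, 2.41 and 2.69 on Nod1 -/- arrays and 3.91, 4.07 and 4.15 on Nod1 +/- arrays (difference -1.59, SE 0.14, adjusted p = 0.00214). Tapbpl, which encodes the tapasin-related editor TAPBPR, read -1.19, -1.20 and -1.53 on Nod1 -/- arrays and 0.58, 0.93 and 0.57 on Nod1 +/- arrays. Its difference of -2.0 (SE 0.15, adjusted p = 0.00143) was the most negative of the 14 supply and loading genes, a 4.0-fold lower signal. Erap1, the aminopeptidase that trims peptides in the endoplasmic reticulum, read -2.63, -2.36 and -2.61 on Nod1 -/- arrays and -1.17, -1.29 and -1.37 on Nod1 +/- arrays (difference -1.26, SE 0.12, adjusted p = 0.0024), again with no overlap.

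The general chaperones of the loading complex stood apart from these. Calr (calreticulin) differed by 0.02 with a 95% interval from -0.24 to 0.29, Canx (calnexin) by -0.03 with an interval from -0.28 to 0.23, and Pdia3 (ERp57, a disulfide isomerase) by 0.32 with an interval from 0.00 to 0.64. The groups overlapped for all 3, and none passed the threshold (adjusted p = 0.898, 0.879 and 0.145). Among 12 other genes of folding in the endoplasmic reticulum and peptide trimming, 0 passed the threshold in either direction in the limma fit, and 1 at an unadjusted p under 0.05 (median 0.05). Lnpep, a trimming aminopeptidase, differed by -0.34 (adjusted p = 0.112) and Uggt1, a folding sensor, by -0.25 (adjusted p = 0.205).

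**Figure D2:**
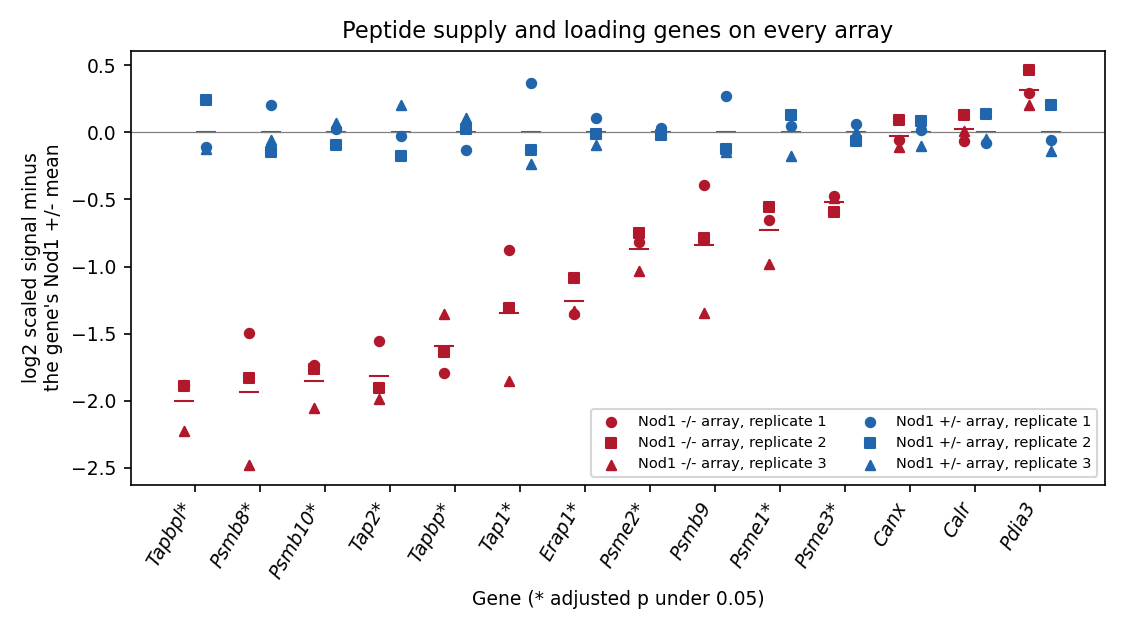
Log2 scaled signal of the 14 peptide supply and loading genes on every array, as the distance from the gene's own Nod1 +/- mean, with Nod1 -/- arrays left of Nod1 +/- arrays in each pair and a bar at each genotype's mean. For 11 genes all Nod1 -/- points lie below all Nod1 +/- points, whereas Canx, Calr and Pdia3 overlap.

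Among class I genes, both classical heavy chains fell. H2-K1 read 3.66, 3.61 and 3.00 on Nod1 -/- arrays and 5.40, 5.39 and 5.47 on Nod1 +/- arrays (difference -2.0, SE 0.19, adjusted p = 0.0024), a 3.99-fold lower signal. H2-D1 read 3.38, 3.08 and 2.39 on Nod1 -/- arrays and 4.08, 4.31 and 4.17 on Nod1 +/- arrays (difference -1.24, SE 0.26, adjusted p = 0.0238). Neither gene's groups overlapped. The H2-D1 call was lost when Nod1 -/- replicate 2 or any 1 of the Nod1 +/- arrays was left out (adjusted p up to 0.0742), while that of H2-K1 was kept without any single array. B2m, the light chain shared by class I molecules, read 5.57, 5.46 and 5.03 on Nod1 -/- arrays and 5.86, 5.81 and 5.58 on Nod1 +/- arrays. Its groups did not overlap, but its difference of -0.39 (SE 0.17, adjusted p = 0.159) did not pass the threshold. Nlrc5, the class I transactivator, read -2.02, -2.64 and -3.11 on Nod1 -/- arrays and -0.11, -1.01 and -0.44 on Nod1 +/- arrays (difference -2.07, SE 0.34, adjusted p = 0.0122). It fell 4.2-fold without overlap, although a second Nlrc5 probe, well above background on 1 Nod1 -/- and 2 Nod1 +/- arrays, differed by -0.77 (adjusted p = 0.156), and the call was lost without Nod1 -/- replicate 2 (adjusted p = 0.0556).

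The promoters of the 2 classical genes and of 2 Q genes carry the same arrangement, shown here because these 4 genes fell together. The RefSeq promoter table (GRCm38.p6, 250 bases before to 50 after a gene's start) matched 43 of the 61 genes. GGGGATTCC, the NF-kappa-B letters of the classical class I enhancer, was found on either strand in 82 of 32851 promoters (0.25%) and, among the 43 genes, in H2-K1, H2-D1, H2-Q6 and H2-Q7, all of which fell. In the stretches below, written along each gene's strand, the first run of capitals marks GGGNNTTCC, of which GGGGATTCC is one form, and the second marks the reverse complement of GAANNGAAA, a form of the interferon-stimulated element.
H2-K1, chr17:34000420-34000488, minus strand: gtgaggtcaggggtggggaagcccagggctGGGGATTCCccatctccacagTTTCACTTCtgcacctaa
H2-D1, chr17:35262893-35262961, plus strand: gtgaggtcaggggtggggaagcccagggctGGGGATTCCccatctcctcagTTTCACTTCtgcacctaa
H2-Q6, chr17:35424647-35424715, plus strand: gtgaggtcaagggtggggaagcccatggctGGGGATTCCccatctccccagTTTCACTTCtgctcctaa
H2-Q7, chr17:35438992-35439060, plus strand: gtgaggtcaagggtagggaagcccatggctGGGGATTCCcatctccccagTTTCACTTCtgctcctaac
H2-Q4, chr17:35379414-35379482, plus strand: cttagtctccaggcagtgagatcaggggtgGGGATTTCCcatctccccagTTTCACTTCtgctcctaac

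H2-Q4 is set beside them because it holds the looser letters and did not fall, at 0.36 (SE 0.19, adjusted p = 0.233). GGGNNTTCC was found in 5.82% of all promoters and in 8 of the 43 genes. Of these, 5 fell, 2 were not past the threshold and 1 was not tested. H2-M2, which also holds only the looser letters, fell, with a difference of -1.34. H2-Aa holds only the looser letters too and differed by -0.04, not past the threshold. GAANNGAAA was found in 7.52% of all promoters and in 9 of the 43 genes, of which 6 fell and 3 were not past the threshold. GAAANNGAA, which can overlap it, was found in 8.56% of promoters and in 4 of the genes, of which Erap1 and Psme1 fell and B2m and H2-T23 were not past the threshold. As a base for these counts, 14 of the 32 tested genes with a promoter in the table fell. A match of letters is a description and not a measured binding site, and these promoters are related by descent.

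Among the Q genes, 5 of 7 tested fell. H2-Q8 read -1.50, -1.53 and -1.99 on Nod1 -/- arrays and 1.04, 0.93 and 0.99 on Nod1 +/- arrays (difference -2.66, SE 0.15, adjusted p = 0.00072). This 6.32-fold lower signal was the most negative difference of the 47 genes. H2-Q7, which encodes a Qa-2 antigen, read 2.79, 2.63 and 1.94 on Nod1 -/- arrays and 3.92, 4.06 and 3.99 on Nod1 +/- arrays (difference -1.54, SE 0.23, adjusted p = 0.00925). The groups of both genes were apart. H2-Q6, H2-Q5 and H2-Q2 fell by 1.31, 1.30 and 1.14 (adjusted p = 0.0314, 0.0174 and 0.0402), also without overlap. Their calls were lost when replicate 2 of either genotype or Nod1 +/- replicate 1 was left out, and those of H2-Q6 and H2-Q2 also without Nod1 +/- replicate 3 (adjusted p up to 0.109 for H2-Q2). H2-Q10 differed by -0.66 (SE 0.24, adjusted p = 0.105), and H2-Q4 was the 1 tested Q gene whose Nod1 -/- arrays were not below the Nod1 +/- arrays. Its arrays read 7.40, 7.27 and 7.91 in Nod1 -/- and 7.27, 6.99 and 7.25 in Nod1 +/- aortas, with Nod1 -/- replicate 2 and Nod1 +/- replicate 1 equal after rounding.

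The other heavy chain genes were mixed. H2-K2, listed by RefSeq as a transcribed pseudogene, read 2.87, 2.76 and 2.17 on Nod1 -/- arrays and 4.34, 4.50 and 4.39 on Nod1 +/- arrays (difference -1.81, SE 0.20, adjusted p = 0.00356). H2-M2 read 0.27, 0.04 and -0.46 on Nod1 -/- arrays and 1.29, 1.43 and 1.18 on Nod1 +/- arrays (difference -1.34, SE 0.20, adjusted p = 0.00935). H2-Bl read -1.52, -2.16 and -2.43 on Nod1 -/- arrays and -0.32, -0.04 and -0.61 on Nod1 +/- arrays (difference -1.71, SE 0.27, adjusted p = 0.0106). These 3 genes had no overlap, and the H2-Bl call was lost without Nod1 -/- replicate 2 (adjusted p = 0.0518). Of 4 tested T genes, 0 passed the threshold in the limma fit and 3 had an unadjusted p under 0.05: H2-T23, which encodes Qa-1, differed by -0.90 (SE 0.26, adjusted p = 0.0574), and the others ranged from -0.55 to 0.16. H2-M3, which presents N-formylated peptides, differed by -0.43 (adjusted p = 0.105), and H2-M5 and H2-M11 by 0.05 and 0.23.

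Cd1d1 and Mr1, class I-like genes outside the H2 cluster, went the other way. Cd1d1, which presents lipids, read 0.68, 0.74 and 0.57 on Nod1 -/- arrays and 0.18, -0.07 and -0.06 on Nod1 +/- arrays (difference 0.65, SE 0.11, adjusted p = 0.0148). Mr1, which presents vitamin B metabolites, rose by 0.75 (SE 0.15, adjusted p = 0.0233). Both had groups without overlap. Both calls were lost in a fit blocked by slide row, where 1 Nod1 -/- array carries the comparison. The Cd1d1 call was also lost when replicate 2 of either genotype or Nod1 -/- replicate 1 was left out (adjusted p up to 0.0637), and the Mr1 call when replicate 1 of either genotype, Nod1 -/- replicate 2 or Nod1 +/- replicate 3 was left out (up to 0.0796). In a list of 10 tested class I-like genes and natural killer receptor ligands outside the 61, 3 rose and 0 fell (median 0.29). Over all genes tested, 11% rose and 7.66% fell (median 0.10). The 3 that rose were Cd1d2 (0.58, adjusted p = 0.0235), Hfe, an iron regulator (0.82, adjusted p = 0.0272), and Fcgrt, the neonatal Fc receptor (0.72, adjusted p = 0.0484).

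**Figure D3:**
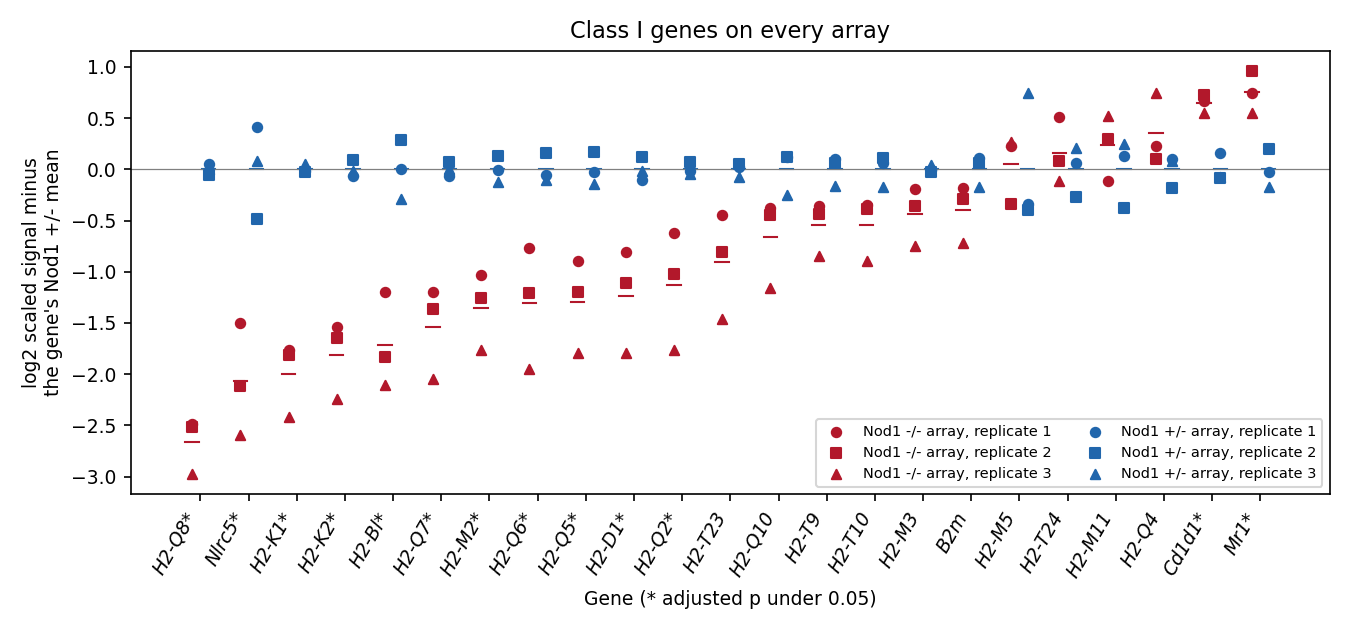
Log2 scaled signal of the 23 tested class I genes on every array, as the distance from the gene's own Nod1 +/- mean, with Nod1 -/- arrays left of Nod1 +/- arrays in each pair and a bar at each genotype's mean. For 17 genes all Nod1 -/- points lie below all Nod1 +/- points, and Nod1 -/- replicate 3 (triangles) is the lowest of its genotype in 20 of the 23.

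Class I genes are close relatives, and some probes could bind each other's transcripts. Probes were compared only with each other, by unbroken runs. A match of a probe to a relative's transcript elsewhere, or one broken by mismatches, was not examined. Of 457 pairs of class I probes from different genes, 4 shared a run of at least 18 bases. The longest joined a second H2-K1 probe and the H2-T23 probe, printed here 5′ to 3′ with the shared 29 bases in capitals (mm9).
H2-K1, chr17:34133984-34134043, minus strand: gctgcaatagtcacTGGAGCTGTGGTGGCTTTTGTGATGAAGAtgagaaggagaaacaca
H2-T23, chr17:36167338-36167574, minus strand: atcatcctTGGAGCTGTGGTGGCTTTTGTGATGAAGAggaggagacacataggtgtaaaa

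The first of these lay at 2.23 ± 0.45 on Nod1 -/- and 3.90 ± 0.09 on Nod1 +/- arrays (SD, n = 3 each), a difference of -1.67. The second lay at 2.64 ± 0.52 on Nod1 -/- and 3.54 ± 0.06 on Nod1 +/- arrays, a difference of -0.90. The remaining pairs joined H2-K2 with H2-Q7 (28 and 19 bases) and H2-Q10 with H2-Q2 (19 bases), so single members of the family are uncertain. Of 10 genes among the 47 with several usable probes, 9 had all probes on the same side of 0. The exception was H2-T24, at 0.16 and 0.00. Being on the same side of 0 does not mean that each probe passed. The second probes of Cd1d1, H2-Q2 and H2-M2 differed by 0.38, -0.78 and -1.83. None of them passed in the limma fit of every kept probe (adjusted p = 0.16, 0.136 and 0.0613).

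The Nod1 -/- arrays were not alike in this pathway. Replicate 3 was the lowest of the 3 Nod1 -/- arrays for 20 of 23 class I genes, against 41.3% of all genes tested. H2-D1 shows the pattern, with 3.38, 3.08 and 2.39 on Nod1 -/- replicates 1 to 3. This array shared row 2 of the slide with all Nod1 +/- arrays, whereas the other 2 Nod1 -/- arrays were in row 1. With the row as a block, the genotype difference is that between this 1 Nod1 -/- array and the 3 Nod1 +/- arrays. H2-K1, Psmb10 and Tap2 then differed by -2.42, -2.05 and -1.99. Since replicate 3 was the lowest Nod1 -/- array for most class I genes, larger falls there follow from that choice of array. Such a fit cannot separate the row from the genotype, and no conclusion was drawn from it.

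Class II genes gave another picture. Cd74, the invariant chain that guides class II molecules, read 0.96, 0.91 and 0.78 on Nod1 -/- arrays and 1.40, 2.0 and 1.63 on Nod1 +/- arrays (difference -0.79, SE 0.17, adjusted p = 0.0269), without overlap. Its call was lost without any 1 of the Nod1 -/- arrays and without Nod1 +/- replicate 3 (adjusted p up to 0.0876). The Cd74 call was also lost in the fit blocked by slide row, where 1 Nod1 -/- array carries the comparison. H2-Ab1, the class II beta chain of the A molecule, read 0.79, 1.05 and 0.38 on Nod1 -/- arrays and 0.85, 1.45 and 0.86 on Nod1 +/- arrays. H2-Aa, its alpha chain, read -2.10, -2.25 and -3.20 on Nod1 -/- arrays and -2.69, -1.50 and -3.23 on Nod1 +/- arrays. The groups overlapped for both, with differences of -0.31 (95% interval -0.89 to 0.27, adjusted p = 0.386) and -0.04 (-1.27 to 1.18, adjusted p = 0.958). H2-DMa, H2-DMb1, H2-Eb1 and H2-Eb2 differed by -0.06 to 0.08, and none passed.

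Ciita read -2.78, -2.73 and -1.69 on Nod1 -/- arrays and -3.34, 0.40 and -2.72 on Nod1 +/- arrays. The genotypes overlapped, and Nod1 +/- replicate 2 stood far above the other Nod1 +/- arrays. The difference of -0.51 (SE 0.98, adjusted p = 0.736) became 0.63 without that array, and that of H2-Aa became 0.44. The Ciita probe has A or C at 54 of its 60 bases. The same array was the highest of the Nod1 +/- arrays for 7 of 8 class II genes, against 33% of all genes. Of 6 tested dendritic cell markers, 3 (Itgax at -1.09, Zbtb46 at -1.89 and Flt3 at -3.86) were highest on that array among the Nod1 +/- arrays. Flt3 was well above background on only 1 Nod1 +/- array. On Nod1 +/- replicate 2, Ccr7 (-3.49) and Siglech were the lowest of that genotype and Cd209a (-3.41) lay between. The summed level of the dendritic cell markers was the lowest there (6.09, in a range of 6.09 to 6.45), and Siglech, at 6.07 on that array, made up nearly all of it. The summed macrophage markers were 6.37 there, the highest of the Nod1 +/- arrays (6.12 to 6.37). Their part in the class II values was not tested.

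**Figure D4:**
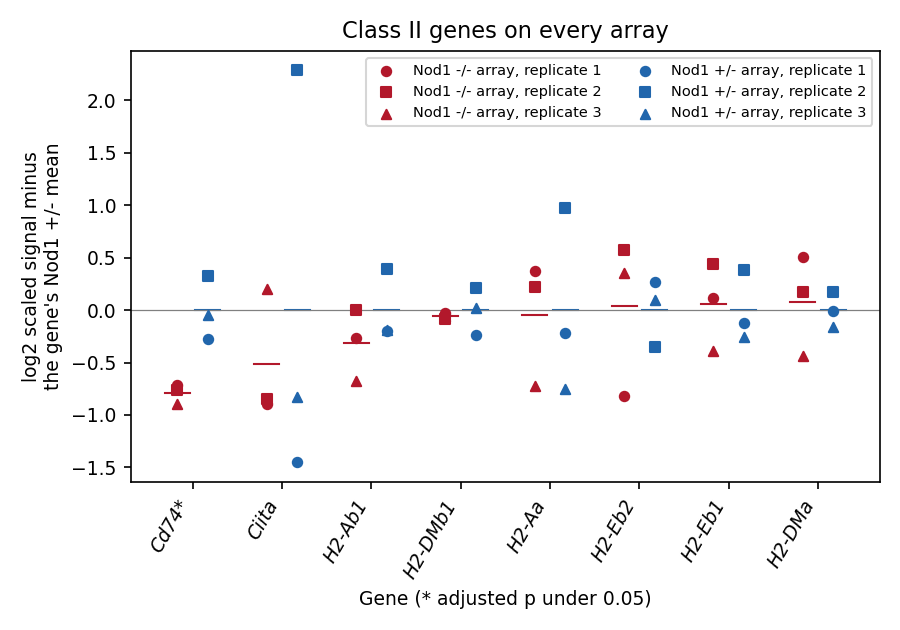
Log2 scaled signal of the 8 tested class II genes on every array, as the distance from the gene's own Nod1 +/- mean, with Nod1 -/- arrays left of Nod1 +/- arrays in each pair and a bar at each genotype's mean. Only Cd74 has its genotypes apart, and Nod1 +/- replicate 2 (blue squares) is high for Ciita and H2-Aa.

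Few other genes of the class II route passed the threshold. Of 8 tested genes of class II processing, 0 passed the threshold in the limma fit and 3 had an unadjusted p under 0.05 (median 0.23). Ctsl, an endosomal protease, differed by 0.36 (adjusted p = 0.0538) and March1, a ligase that removes class II molecules from the surface, by 0.72 (adjusted p = 0.0656). Of 6 tested class II transcription factors, Rfxank rose by 0.63 (adjusted p = 0.0215) and the other 5 did not pass.

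Regulators of the class I pathway also differed. Of 15 tested regulators and interferon-gamma signalling genes, 8 fell and 0 rose (median -0.62). Irf1, a transcription factor that binds class I promoters, read 2.95, 2.93 and 2.60 on Nod1 -/- arrays and 4.43, 4.52 and 4.56 on Nod1 +/- arrays (difference -1.68, SE 0.13, adjusted p = 0.00132). Its groups were far apart. Nfkb1, an NF-kappa-B subunit, fell by 1.16 (adjusted p = 0.00336), the kinase Jak1 by 0.98 (adjusted p = 0.00555) and the receptor chain Ifngr2 by 0.62 (adjusted p = 0.0176). The Ifng probe was well above background on no array. In the list of co-stimulatory and co-inhibitory ligands, 3 of 7 tested genes fell and 1 rose (median -0.46). Icosl, the ligand of ICOS, fell by 2.80 (adjusted p = 0.000391), Cd274, which encodes PD-L1, by 1.40 (adjusted p = 0.0103) and Tnfsf9, which encodes 4-1BB ligand, by 0.77 (adjusted p = 0.0119). Cd86 rose by 0.86 (adjusted p = 0.0385).

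**Figure D5:**
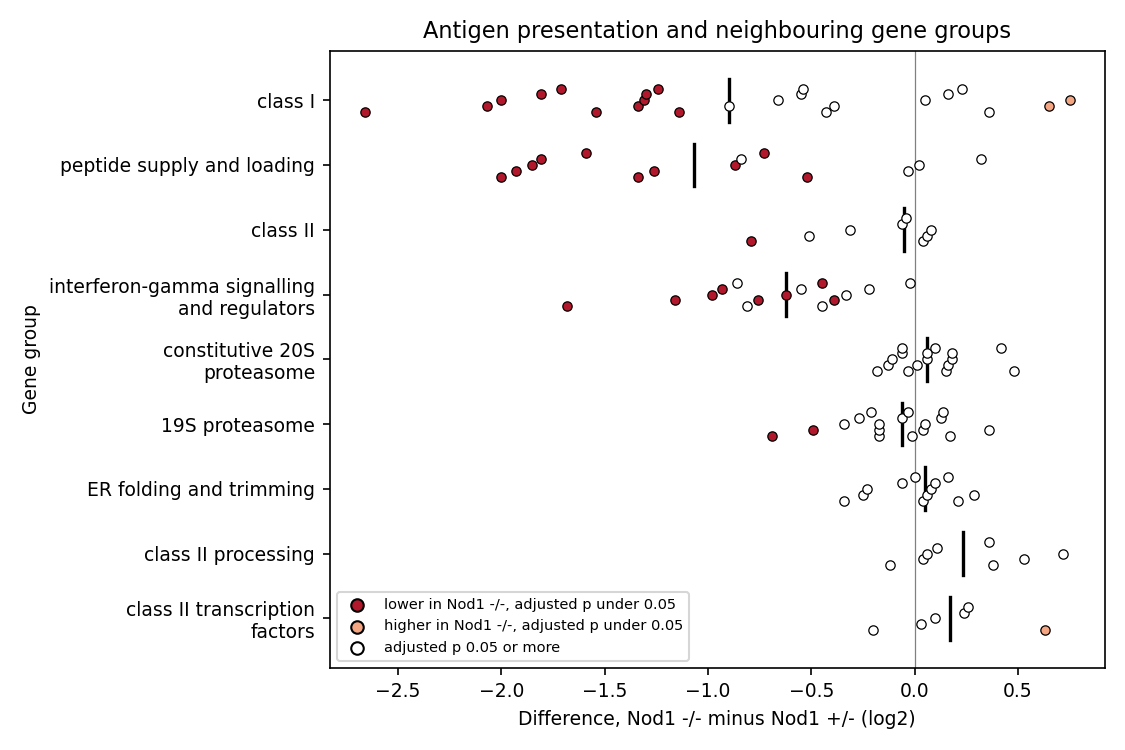
Difference between Nod1 -/- and Nod1 +/- aortas (log2) of each tested gene, by group, with a bar at the group's median. Class I, peptide supply and loading, and interferon-gamma signalling have medians of -0.90, -1.06 and -0.62, whereas the constitutive proteasome, folding and class II groups have medians from -0.06 to 0.23.

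Markers of blood cells also differed between the genotypes. Of 5 tested B cell markers, Cd79b rose by 1.09 (limma, adjusted p = 0.0488) and 0 fell. Their summed levels were 0.77 to 1.95 on Nod1 -/- and 0.32 to 0.53 on Nod1 +/- arrays. Of 10 neutrophil markers, 6 fell in Nod1 -/- aortas (median -2.66). The summed levels of the 10 were 4.09 to 4.49 on Nod1 -/- arrays and 6.95 to 7.65 on Nod1 +/- arrays. The neutrophil receptor Cxcr2, among the 6, was well above background on 0 Nod1 -/- and 3 Nod1 +/- arrays. Cxcr2 was thus kept through the Nod1 +/- arrays alone. Of 9 macrophage markers tested, 2 rose and 0 fell, with summed levels of 6.18 to 7.08 on Nod1 -/- and 6.12 to 6.37 on Nod1 +/- arrays. Of 10 T and natural killer cell markers, 4 were tested and 0 passed in the limma fit (0 at an unadjusted p under 0.05), with summed levels of 1.59 to 1.77 on Nod1 -/- and 1.63 to 1.68 on Nod1 +/- arrays. Itgax, which encodes CD11c, was the 1 of 6 tested dendritic cell markers past the threshold, lower in Nod1 -/- aortas. It was well above background on 0 Nod1 -/- and 3 Nod1 +/- arrays, so it was kept through the Nod1 +/- arrays alone. In whole tissue, fewer cells of a type and less RNA per cell cannot be told apart, and the part of these cells in the class I differences was not tested.

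The 14 genes that were not tested were dim. Of these, 12 were well above background on no array: H2-Q1, H2-T3, H2-T18, H2-M1, H2-M9, H2-M10.1, H2-M10.2, H2-M10.3, H2-M10.4, H2-M10.6, H2-DMb2 and H2-Ea-ps. H2-Oa and H2-Ob, which form the class II regulator H2-O, were above background on 2 Nod1 -/- arrays and 0 Nod1 +/- arrays each by their brightest probe. For H2-Oa this gave a signal 1.28-fold higher in Nod1 -/- aortas, with no test. It was set against the higher of its own value and the dimmest signal well above background on each Nod1 +/- array. The Nod1 -/- mean took in an array that was not well above background, so the fold is not a lower bound. For H2-Ob the same comparison gave no fold. H2-Ke2 and H2-Ke6 differed by -0.01 and 0.18 (adjusted p = 0.976 and 0.274).

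Single arrays bore on how many genes passed. Without Nod1 -/- replicate 2, 12 of the 47 genes passed, all lower in Nod1 -/- aortas. The share of all genes past the threshold also dropped, from 18.7% to 6.79%. Leaving out another array left 16 to 24 of the 47, and 8.64% to 15.8% of all genes. Xist signal was used as a covariate for sex, or for the mix of sexes if an array held several fetuses. With it 17 of the 47 and 10.6% of all genes passed. The calls of Mr1, H2-D1, H2-Q6, H2-Q2, Psme3, Psme1 and Tap1 were then lost (adjusted p up to 0.0902). H2-K1, H2-K2, H2-Q8, Psmb8, Psmb10, Tap2, Tapbp and Tapbpl passed, in the same direction, under all 19 alternative settings that give 1 value per gene.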

How the data were processed

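RNA from 6 fetal aorta samples was read on 1-colour Cy3 Agilent arrays of 60-base probes, grouped by the genotype in their labels. The deposited scanner output holds a linear intensity for each spot, already corrected for background; per the file headers this was Agilent Feature Extraction 10.7.1.1, whereas version 9.5.1.1 stands in the submitters' processing notes, and the difference was not resolved. The authors' deposited series table, also intensity, has a median of 33.4 in every column by a step not given in the sources used here, and served as an alternative. The flags for spots well above background are deposited in the same files.

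Control and outlier spots were left out and 0 spots were saturated. Log2 signals were averaged per probe and the array's 75th percentile was subtracted. Of 55681 probes, 30166 were well above background on at least 3 of 6 arrays in at least 0.5 of their spots, and 134 had no usable spot on some array. A gene was its kept probe with the highest mean, so a second probe can differ. R 4.3.3 and limma 3.58.1 (lmFit, eBayes) gave differences, tested on simulated data first, and the number of arrays limits the precision. Promoter letters were searched with Python 3.11.15, figures drawn with matplotlib 3.10.9. The 6 arrays shared 1 slide and 1 scan time. Gene names are those of the array design. Members, lists and one alternative were chosen with earlier results of these data known. Values on every array are given for members past the threshold, up to the 8 with the smallest p per class, and for H2-K1, H2-D1, B2m, Nlrc5, H2-Aa, H2-Ab1, Cd74, Ciita, Tap1, Psmb8, Psmb9 and Psmb10; from other lists, up to 4 changed genes with the smallest p, or 2 where none changed. H2-Oa, H2-Ob, Cxcr2, Itgax, Zbtb46, Flt3, Siglech, Ccr7, Cd209a, Cd79b, Tek, Tie1, Cldn5, Cdh5, Esam, Lum, Dcn and Fabp7 were named after their values were seen. Alternatives were background correction, scaling, the dim-probe filter, probe choice, the variance model, blocks, Xist as a covariate, the deposited table, and arrays left out. Exons of mm9 were not used here.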

Additional observations from a re-analysis of the deposited data

How the results depend on the processing

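The 24 genes past the threshold became 14 without a filter on dim probes and 10 without both first replicates, and 12 to 24 when single arrays were left out; those lower in Nod1 -/- aortas, 22 at first, became 14 and 10 under the same settings and 12 to 22. The count over all genes, 4012 at first, became 1636 without the filter, 1033 in the fit blocked by slide row, 2281 with Xist as a covariate, 641 without both first replicates, and 1459 to 3387 with single arrays left out. Fewer arrays or more probes entered the settings without arrays and without the filter; for the other settings the cause was not tested. Ciita changed sign to 0.19 in the fit blocked by slide row and ranged from -1.24 to 0.63 with single arrays left out; H2-Aa changed to 0.03 with array weights and ranged from -0.42 to 0.44, reaching 0.30 without Nod1 -/- replicate 3. With the replicate number as a block, 27 of the 47 genes passed, 23 of them shared with the fit without it, H2-Q2 was lost, and 4040 of all genes passed. Deviations of same-numbered arrays correlated at 0.08, 0.28 and 0.11, and not every array matched its own number best, so the numbers were not taken to pair the samples. Probes near background limit the dim genes.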
